A study of Mus musculus with 4 samples.

Results

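The genes described here make, desaturate, activate, import and burn fatty acids. They were listed by function and matched to the array by gene symbol. Of 44 listed genes, 42 were measured among 19938 genes in all. Acsl1 and Acsl3, which encode acyl-CoA synthetases, were not analysed here, because no cluster was named for the former and the cluster of the latter carries a further symbol. The 42 genes fall into 15 of fatty acid synthesis and desaturation, 2 of acyl-CoA activation, 4 of the carnitine shuttle, 16 of mitochondrial and related beta-oxidation and 5 of PPAR regulation, binding and uptake.

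Total RNA was profiled from cell lines grown out of digested pancreatic tumors of genetically engineered mice, with 1 array per line and no treatment. TPC lines (TPC18645 and TPC20223) carry Ela-TGFa, Ptg1a+/CRE and Trp53fl/fl, and TPAC lines (K459 and TCPA18654) carry p65fl/fl in addition. The TGF-α transgene is driven by the elastase promoter and Cre by a pancreatic driver, which the study gives as p48-Cre where the labels have Ptg1a. By these alleles, both genotypes are meant to share TGF-α overexpression and loss of p53, and TPAC to differ by deletion of RelA/p65. The labels give neither the age of the mice nor whether each line was grown from its own mouse. P-values therefore measure only the spread between these lines. The cells were not sorted before culture, and in such bulk RNA fewer cells of a type and less RNA per cell cannot be told apart.

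Cells build fatty acids in the cytosol from acetyl-CoA, which ATP citrate lyase splits from exported citrate. Acetyl-CoA carboxylase and fatty acid synthase then make palmitate, and elongases and desaturases lengthen it and add double bonds. To be burned, a fatty acid is joined to coenzyme A, carried into mitochondria as a carnitine ester and shortened by repeated rounds of dehydrogenation, hydration, a second dehydrogenation and thiolysis. SREBP factors switch on the first program and PPAR factors the second, and pancreatic cancer cells are known to draw on both.

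The line TPC20223 stood apart from the other lines. The mean log2 signal of 8 ductal and epithelial markers was 6.79 there, whereas TPC18645 had 10.51, K459 had 11.88 and TCPA18654 had 10.76, and that of 7 fibroblast markers was 9.94 against 8.30 to 8.62. The labels call all lines pancreatic tumor cells, and most epithelial markers of such cells were low in this line. All 8 were lowest there, but Epcam and Cldn4 set K459 apart instead, with 9.77 and 9.19. In TPC18645, TPC20223 and TCPA18654, Epcam had 6.82, 6.43 and 7.37, and Cldn4 had 7.12, 6.93 and 7.25. Conversely, TPC18645 and TCPA18654 were close despite their different genotype labels. The signal of Rela itself was 11.12 in TPC18645 and 10.70 in TPC20223, and K459 and TCPA18654 had 10.82 and 11.10. The sources used here do not name the deleted exons, so this signal does not check the deletion. Tgfa had 8.94 (TPC18645), 7.88 (TPC20223), 9.07 (K459) and 8.90 (TCPA18654), lowest in TPC20223. Whether the signal of Tgfa includes the transgene was not tested. The values carry no detection call, and for the 40% of genes with the weakest mean signal, called dim here, the size of a difference is not exact.

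Beta-oxidation genes were lowest in TPC20223, and synthesis genes followed to a lesser degree. When each gene was set relative to its mean over the 4 lines, the median of the 16 beta-oxidation genes was -0.37 on the log2 scale in TPC20223, while TPC18645 and TCPA18654 had 0.13 each and K459 had 0.09. The median of the 15 synthesis and desaturation genes was -0.19 in TPC20223 and 0.02, 0.08 and 0.10 in the other lines, in the same order. Synthesis minus oxidation was therefore 0.18 in TPC20223 and between -0.11 and -0.01 in the other lines. Both TPAC lines differed from TPC18645 by less than TPC20223 did. With means in place of medians the balance was 0.22 in TPC20223, -0.25 in TPC18645, 0.10 in K459 and -0.07 in TCPA18654, so that the sign of K459 depended on this choice.

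**Figure D1:**
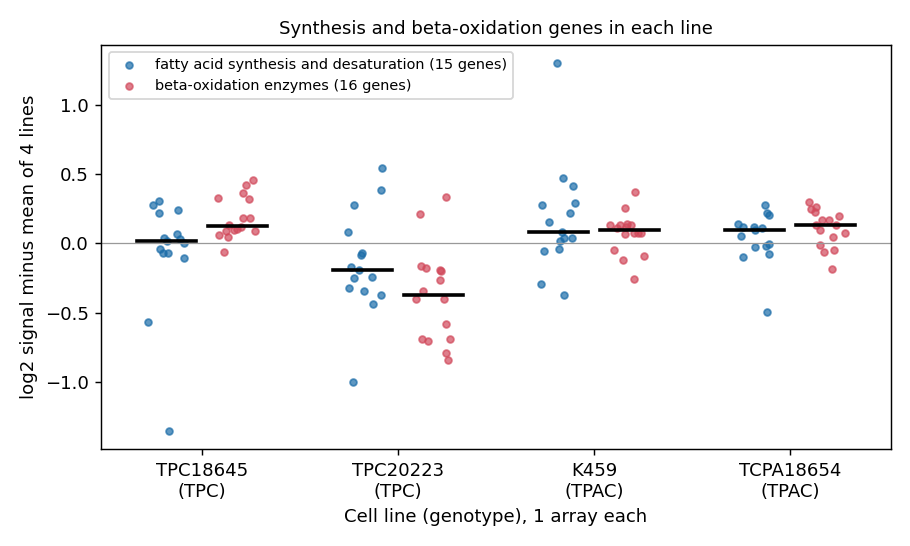
Log2 signal of each synthesis and desaturation gene (blue, 15 genes) and each beta-oxidation gene (red, 16 genes) minus its mean over the 4 lines, by line; black bars are medians. The medians in TPC20223 are -0.19 and -0.37, and those of the other lines lie between 0.02 and 0.13.

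TPC20223 was the lowest of the 4 lines in 14 of 16 beta-oxidation genes and in 9 of 15 synthesis genes, whereas it was the lowest in 38.8% of all genes and in 40.6% of the genes that were not dim. It was the highest in 2 of 16 and 3 of 15, against 28.1% of all genes. In the 14 beta-oxidation genes it lay below the next line by 0.06 to 0.96, with a median gap of 0.47, and in 11 of them this gap was wider than the whole range of the other lines. These are descriptions of single arrays, and no test compares 1 line with the rest. The mean epithelial signal was lowest and the mean fibroblast signal highest in the same line, but not every marker followed. Dcn was 9.35 in TPC20223, below TPC18645 (11.03) and TCPA18654 (10.99). The mean of 7 mesenchymal markers was 11.31 in TPC20223 and 10.61 to 10.81 elsewhere. Of these, 6 were highest in TPC20223, though Vim spanned only 13.79 to 13.91, and Cdh2 was lowest there (10.95). The part of these markers in the pattern was not tested.

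**Figure D2:**
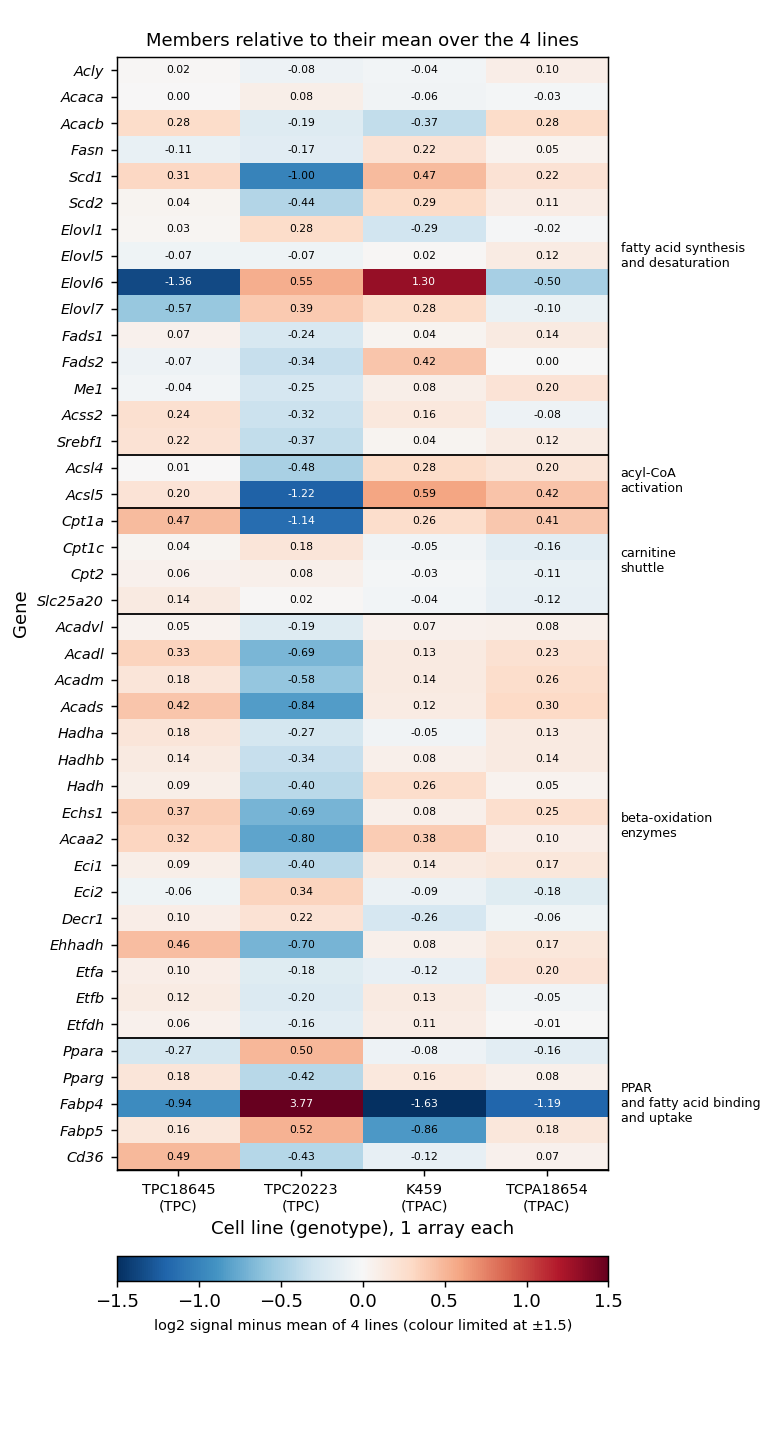
Log2 signal of the 42 measured genes minus the mean of the gene over the 4 lines, one column per line with its genotype and rows grouped by role; red is above and blue below the mean, with the colour limited at 1.5. TPC20223 is the lowest line in 14 of 16 beta-oxidation genes, and Fabp4 is 3.77 above its mean there.

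The first dehydrogenation is done by acyl-CoA dehydrogenases that differ in the chain length they accept. Acads, the short-chain form, had log2 signals of 10.28 (TPC18645), 9.02 (TPC20223), 9.98 (K459) and 10.16 (TCPA18654). Acadl, the long-chain form, had 10.65, 9.63, 10.45 and 10.55 in the same order, and Acadm, the medium-chain form, had 11.02, 10.25, 10.97 and 11.10. In each of these genes TPC20223 was low and the other lines lay within 0.13 to 0.30 of each other. Acadvl, the very long-chain form, varied least, with 9.20, 8.96, 9.22 and 9.23, and both of its TPAC values lay above both TPC values.

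TPC20223 was lowest at the next steps as well. Echs1, the short-chain enoyl-CoA hydratase, had log2 signals of 11.07 (TPC18645), 10.01 (TPC20223), 10.78 (K459) and 10.95 (TCPA18654). Acaa2, the mitochondrial thiolase, had 11.32, 10.20, 11.37 and 11.09. Ehhadh, the peroxisomal bifunctional enzyme, had 7.73, 6.57, 7.35 and 7.44. For these genes TPC20223 lay 0.77 to 0.89 below the next line, and the others lay within 0.28 to 0.38 of each other. Hadha and Hadhb encode the subunits of the mitochondrial trifunctional protein and had ranges over the 4 lines of 0.45 and 0.48. Hadh, the hydroxyacyl-CoA dehydrogenase, had a range of 0.66, and each of these 3 genes was lowest in TPC20223.

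Auxiliary enzymes of unsaturated fatty acids did not all follow. Eci1, an enoyl-CoA isomerase, was lowest in TPC20223 with 9.64, whereas TPC18645 had 10.13, K459 had 10.18 and TCPA18654 had 10.21. Its relative Eci2, in contrast, was highest there, with 9.66 against 9.26, 9.23 and 9.14. Decr1, the dienoyl-CoA reductase, was also highest in TPC20223, with 9.06 against 8.95, 8.59 and 8.78. In both Eci2 and Decr1 the TPAC lines lay below the TPC lines. Etfa, Etfb and Etfdh pass the electrons of the first dehydrogenation on to ubiquinone. Their ranges over the lines were 0.38, 0.33 and 0.27, with TPC20223 lowest in each.

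Entry into mitochondria split by enzyme. Cpt1a, the outer membrane carnitine palmitoyltransferase that limits the rate of import, had log2 signals of 11.64 (TPC18645), 10.03 (TPC20223), 11.43 (K459) and 11.58 (TCPA18654). TPC20223 was thus 2.87-fold below the mean of the other lines, which lay within 0.21 of each other. The rest of the shuttle was nearly level. Cpt2, the inner membrane enzyme, had 10.04, 10.06, 9.95 and 9.87 in the same order of lines. Slc25a20, the carnitine-acylcarnitine carrier, had 9.49, 9.37, 9.31 and 9.23, and Cpt1c, a form known from neurons, had 8.86, 9.00, 8.77 and 8.66. In these 3 genes both TPAC lines lay below both TPC lines, by mean differences of -0.14, -0.16 and -0.22, and none passed limma's test.

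Both genes of acyl-CoA activation were lowest in TPC20223. Acsl5, a long-chain acyl-CoA synthetase of mitochondria and the endoplasmic reticulum, had log2 signals of 11.05 (TPC18645), 9.63 (TPC20223), 11.44 (K459) and 11.27 (TCPA18654). Acsl4, which prefers arachidonic acid, had 10.71, 10.22, 10.98 and 10.90. In both genes the TPAC lines lay above both TPC lines. Without TPC20223 the log2 difference between TPAC and TPC was 0.31 for Acsl5 and 0.23 for Acsl4, against 1.02 and 0.48 with the 4 lines.

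**Figure D3:**
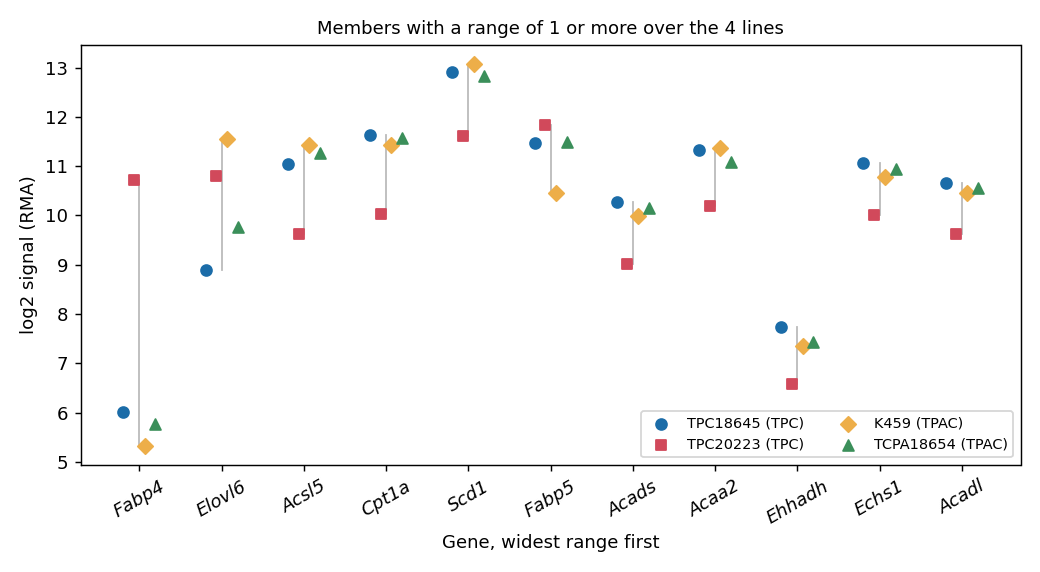
Log2 RMA signal in each line for the 11 genes with a range of 1 or more over the 4 lines, from the widest range to the narrowest; each symbol is 1 array. Fabp4 is at 10.73 in TPC20223 and at 5.33 to 6.02 in the other lines, and 8 of the 11 genes are lowest in TPC20223.

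The desaturase genes ranged from wide to narrow differences between the lines. Scd1, a stearoyl-CoA desaturase that makes oleic acid, had log2 signals of 12.92 (TPC18645), 11.61 (TPC20223), 13.08 (K459) and 12.83 (TCPA18654). Scd2, its close paralog, had 13.35, 12.87, 13.60 and 13.42. TPC20223 was lowest in both, and for Scd2 both TPAC lines lay above both TPC lines. Signal shared between these similar transcripts cannot be told apart. Fads2, which starts the synthesis of polyunsaturated fatty acids, had 11.59, 11.32, 12.08 and 11.66, with the TPAC lines above the TPC lines and K459 highest. Fads1, which acts later in the same path, had a range over the lines of 0.38.

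Among the enzymes that supply and join the building blocks, Acly and Acaca had the narrowest ranges. Acly, ATP citrate lyase, had a range of 0.18 over the 4 lines, and Acaca, the cytosolic acetyl-CoA carboxylase, had 10.07, 10.15, 10.01 and 10.04, with the TPAC lines just below the TPC lines. A weaker second cluster of Acaca had 9.17, 9.56, 9.37 and 9.36, where the genotypes overlapped. Fasn, fatty acid synthase, had log2 signals of 11.45 (TPC18645), 11.39 (TPC20223), 11.78 (K459) and 11.61 (TCPA18654). Me1, the malic enzyme that supplies NADPH, had 11.04, 10.83, 11.16 and 11.28. In Fasn and Me1 the TPAC lines lay above both TPC lines by a small margin. Acacb, the mitochondrial carboxylase, and Acss2, which makes acetyl-CoA from acetate, had ranges of 0.65 and 0.57 with overlapping genotypes. Srebf1, the transcription factor gene of the synthesis program, had 10.13, 9.54, 9.95 and 10.03.

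The elongases did not share one order of the lines. Elovl6, which extends palmitate, had log2 signals of 8.90 (TPC18645), 10.80 (TPC20223), 11.56 (K459) and 9.76 (TCPA18654), a 6.32-fold span. It was the widest difference among the 15 genes of this group, and its order did not follow TPC20223: K459 was highest and TPC18645 lowest. Elovl7 had 9.69, 10.65, 10.54 and 10.16, with TPC18645 again lowest. Elovl1, for saturated very long chains, had 11.67, 11.92, 11.35 and 11.62, and both TPAC lines lay below both TPC lines. Elovl5, for polyunsaturated chains, had 11.72, 11.72, 11.81 and 11.91, with the TPAC lines above.

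Promoter windows of 5 of these genes are shown because they stand for the patterns above: Fasn and Elovl5 had TPAC lines above TPC lines, Elovl6 had the widest range of its group, and Acsl5 and Cpt1a were lowest in TPC20223. The sequences are from RefSeq (GRCm38.p6), from 250 bases before to 50 bases after the start, 5′ to 3′ on the gene's strand. Fasn lies at chr11:120824498-120824797 on the minus strand, and on the plus strand lie Elovl5 at chr9:77917115-77917414, Elovl6 at chr3:129532136-129532435, Acsl5 at chr19:55253119-55253418 and Cpt1a at chr19:3323051-3323350. Capitals mark matches on either strand to CCAAT, the NF-Y box, or CACGTG, an E-box, and the window of Elovl6 holds 0 matches to the motifs searched.
Fasn: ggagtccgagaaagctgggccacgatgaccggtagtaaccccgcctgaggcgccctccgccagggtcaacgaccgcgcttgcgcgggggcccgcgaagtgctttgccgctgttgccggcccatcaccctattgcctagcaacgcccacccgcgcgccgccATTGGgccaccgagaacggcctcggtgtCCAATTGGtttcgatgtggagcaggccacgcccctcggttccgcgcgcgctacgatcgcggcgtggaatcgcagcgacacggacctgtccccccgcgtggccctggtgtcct
Elovl5: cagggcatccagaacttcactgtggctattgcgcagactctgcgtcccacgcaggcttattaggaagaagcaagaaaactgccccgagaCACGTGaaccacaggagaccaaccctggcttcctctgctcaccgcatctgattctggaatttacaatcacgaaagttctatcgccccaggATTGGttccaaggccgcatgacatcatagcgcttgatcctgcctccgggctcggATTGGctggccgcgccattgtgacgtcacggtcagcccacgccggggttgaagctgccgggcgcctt
Elovl6: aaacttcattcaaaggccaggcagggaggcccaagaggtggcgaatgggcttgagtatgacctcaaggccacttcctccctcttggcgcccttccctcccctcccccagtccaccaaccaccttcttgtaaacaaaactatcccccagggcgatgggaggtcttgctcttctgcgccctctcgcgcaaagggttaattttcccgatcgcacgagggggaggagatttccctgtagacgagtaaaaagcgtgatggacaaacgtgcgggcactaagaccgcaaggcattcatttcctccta
Acsl5: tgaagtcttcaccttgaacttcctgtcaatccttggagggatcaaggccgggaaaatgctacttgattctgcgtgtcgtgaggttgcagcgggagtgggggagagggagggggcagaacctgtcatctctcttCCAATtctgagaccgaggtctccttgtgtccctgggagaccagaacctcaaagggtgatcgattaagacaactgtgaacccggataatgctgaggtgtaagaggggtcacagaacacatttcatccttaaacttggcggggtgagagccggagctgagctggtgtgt
Cpt1a: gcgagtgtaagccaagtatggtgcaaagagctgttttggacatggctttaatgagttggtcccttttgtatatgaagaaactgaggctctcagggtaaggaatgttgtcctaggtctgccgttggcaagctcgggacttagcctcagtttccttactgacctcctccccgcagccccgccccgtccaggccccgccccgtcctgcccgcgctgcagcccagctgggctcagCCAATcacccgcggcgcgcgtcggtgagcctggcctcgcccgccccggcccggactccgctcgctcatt

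Both strands of the windows were searched for these motifs, for TCACNCCAC, a sterol regulatory element, and for a DR1 element bound by PPAR (2 copies of AGGTCA with 1 base between). No match of one motif overlaps a match of another in the windows shown, but matches of CCAAT on opposite strands overlap in Fasn. The CCAAT motif was in 8 of 12 synthesis genes with a window and in 6 of 14 beta-oxidation genes, whereas 41.1% of all genes with a window hold it. CACGTG was in Elovl5 alone of the 35 measured genes with a window, and 8.09% of all genes hold it. TCACNCCAC was in Ehhadh alone, against 1.44% of all genes, and the DR1 element was in 0 of 35, against 0.0481%. Such matches describe letters in a short window and not binding.

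Fabp4 showed the widest span of all measured members. This fatty acid binding protein is best known from adipocytes, macrophages and endothelial cells. It had log2 signals of 6.02 (TPC18645), 10.73 (TPC20223), 5.33 (K459) and 5.77 (TCPA18654). TPC20223 was thus 32.5-fold above the mean of the other lines, in which its signal lay below the median of the array. Other adipocyte markers did not move with it. Adipoq, which encodes the adipocyte hormone adiponectin, had 5.23, 5.24, 5.16 and 5.27, and the mean of 5 adipocyte markers was 6.36 in TPC20223 and 6.43 to 6.48 elsewhere.

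Endothelial markers were mixed and macrophage markers were not higher on average in TPC20223. The mean of 6 endothelial markers was 6.28 in TPC20223 and 6.09 or less in the other lines, with Pecam1 at 6.02 there against 5.97 to 6.10. Of these markers, the receptor kinase genes Tek and Kdr were higher in TPC20223, with 7.15 against 5.80 to 5.85 for Tek and 7.02 against 6.13 to 6.20 for Kdr, and Cdh5, Tie1 and Emcn were lowest there. The mean of 7 macrophage and leukocyte markers was 6.12 in TPC20223 and 6.34 to 6.39 elsewhere. All 6 endothelial markers and 6 of the 7 macrophage and leukocyte markers were dim, so the sizes of these differences are not exact. Of the 7 fibroblast markers, 6 were highest in TPC20223, as Fabp4 was, among them Col1a1 with 13.02 against 8.53 to 10.36 and Pdgfra with 10.32 against 7.72 to 8.32. Lum was among the 6 but nearly flat, at 4.27 to 4.72. Dcn, the remaining marker, was lower in TPC20223 (9.35) than in TPC18645 (11.03) and TCPA18654 (10.99). Col1a1 and Col1a2 were second highest in K459, with 10.36 and 9.76, where Fabp4 was lowest. The part of any cell type in the signal of Fabp4 was not tested.

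Fabp5, the epidermal form of the same family, had log2 signals of 11.48 (TPC18645), 11.84 (TPC20223), 10.45 (K459) and 11.49 (TCPA18654). Here K459 was low and the other lines were close. A second cluster of the gene gave 11.41, 11.79, 10.38 and 11.45. K459 was the lowest line in 24.2% of all genes and in 6 of the 42 described here. It was the highest in 11 of 42, against 22.6% of all genes. These were Fasn, Scd1, Scd2, Fads2 and Elovl6 of synthesis, Acsl4 and Acsl5 of activation, and Hadh, Acaa2, Etfb and Etfdh of beta-oxidation. Pparg, the adipogenic PPAR, had 11.65, 11.05, 11.62 and 11.54, with TPC20223 lowest. Ppara, the PPAR that drives oxidation genes in liver, went the other way with 6.73, 7.50, 6.92 and 6.84. Cd36, a fatty acid transporter, had 5.28, 4.36, 4.67 and 4.86. By their mean over the lines, Fabp4 and Cd36 were the dim genes among the 42.

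TPAC and TPC lines were compared to ask whether loss of RelA/p65 goes with a change in these genes. No member was called: 0 of 42 passed limma's test, with an adjusted p of 0.989 or more over all genes, and 0% of all genes were called. At an unadjusted p under 0.05, 0 of 42 passed, against 0.782% of all genes. With 2 lines against 2 there are 6 ways to assign the labels, and at least 2 of them are equally extreme, so a two-sided exact permutation over lines could not reach 0.05.

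Both TPAC lines lay above both TPC lines in 9 of 42 members and below them in 8. The shares over all genes were 13.7% and 13.3%. The 9 were Fasn, Scd2, Elovl5, Fads2, Me1, Acsl4, Acsl5, Acadvl and Eci1, and the 8 were Acaca, Elovl1, Cpt1c, Cpt2, Slc25a20, Eci2, Decr1 and Fabp4. Of the former, 5 belong to synthesis, 2 to activation and 2 to beta-oxidation. Of the latter, 3 belong to the carnitine shuttle, 2 to synthesis, 2 to beta-oxidation and 1 to PPAR regulation, binding and uptake. Some margins were small: Acadvl had 9.22 in K459 against 9.20 in TPC18645, and Acaca 10.04 in TCPA18654 against 10.07 in TPC18645. The log2 differences with the standard error of limma's fit were 0.28 ± 0.14 for Fasn, 0.40 ± 0.22 for Scd2, 0.42 ± 0.22 for Fads2, 0.29 ± 0.15 for Me1 and -0.32 ± 0.14 for Decr1, which had the smallest unadjusted p (limma, 0.0961). That of Fabp4 was -2.83 ± 1.73, and without TPC20223 it was -0.47.

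The mean was higher in TPAC in 12 of 15 synthesis genes, with a median log2 difference of 0.18, and in 14 of 16 beta-oxidation genes, with a median of 0.23. Over all genes 52.2% were higher, with a median of 0.015. The median of the synthesis genes minus that of the beta-oxidation genes was -0.05. Without TPC20223, where both TPAC lines were set against TPC18645 alone, the picture changed. Then 10 of 15 synthesis genes were higher with a median of 0.035, and 12 of 16 beta-oxidation genes were lower with a median of -0.08, while 52.6% of all genes were lower. The higher mean of beta-oxidation genes in TPAC lines therefore rested on TPC20223. In this setting the differences of Fasn, Elovl5 and Decr1 were 0.25, 0.14 and -0.27, whereas that of Scd2 went from 0.40 to 0.16 and that of Me1 from 0.29 to 0.18. Without TPC18645 that of Scd2 was 0.64. That of Fads2 was 0.21 without K459 and 0.63 without TCPA18654, against 0.42 with the 4 lines, and that of Elovl5 was 0.09 without TCPA18654.

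**Figure D4:**
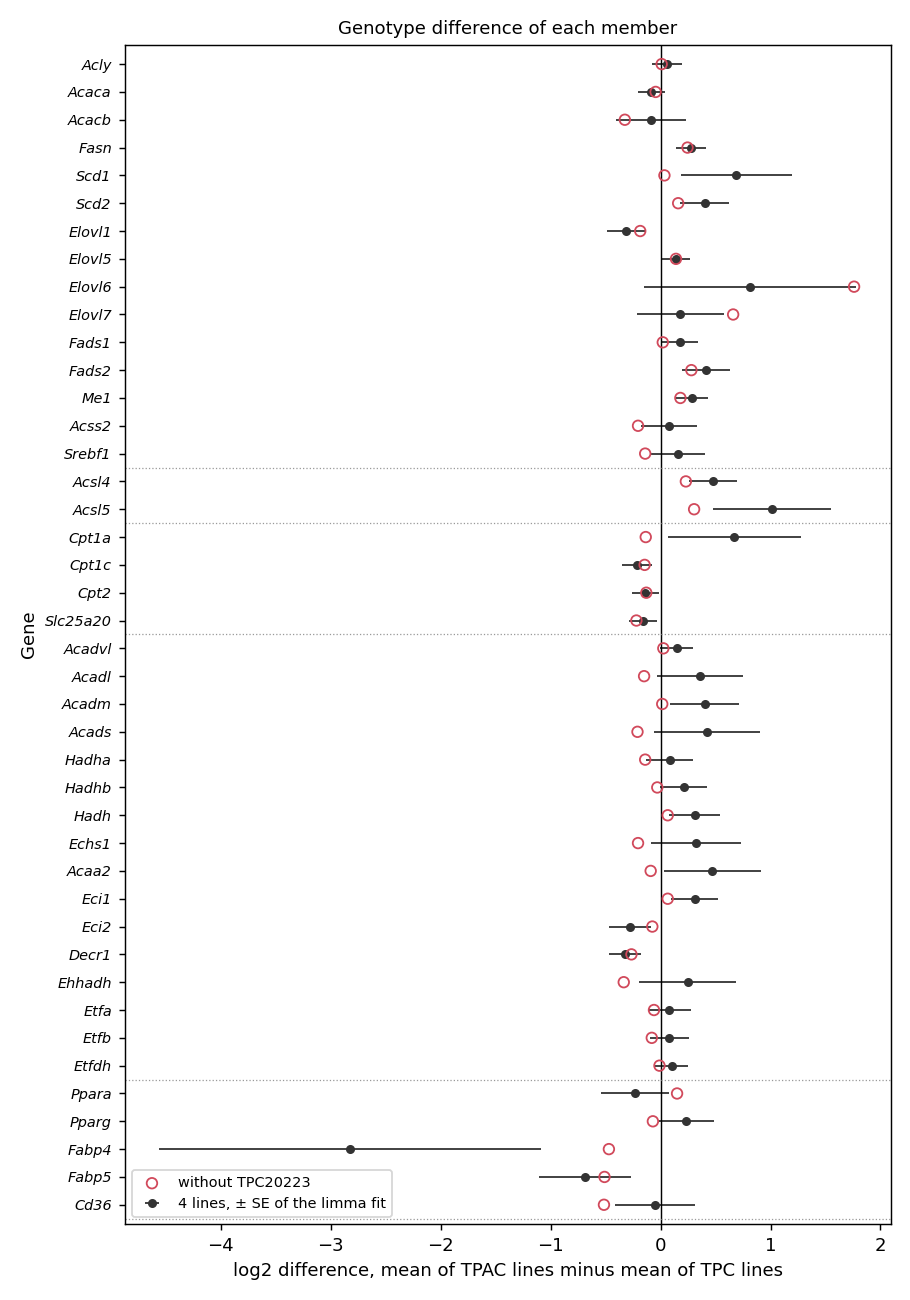
Log2 difference of each measured gene, mean of the TPAC lines minus mean of the TPC lines; filled points are the 4 lines with the standard error of limma's fit, and open red circles leave out TPC20223. Dotted lines part the roles. The median of the beta-oxidation genes goes from 0.23 to -0.08 without TPC20223.

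Pairs of lines showed how far the genes spread within a genotype. Between TPC18645 and TPC20223, 10 of 42 members differed by 1 or more on the log2 scale, against 11.3% of all genes. Between the TPAC lines K459 and TCPA18654, 2 of 42 did (Elovl6 and Fabp5), against 3.87%. Between TPC18645 and TCPA18654, of different genotype, 0 of 42 did, against 0.271%, and the largest gap was that of Elovl6. In all, 11 of 42 members had a range of 1 or more over the 4 lines, against 15.9% of all genes, and 2 of 42 had it over the lines other than TPC20223, against 4.96%. Only 2 of the 42 were dim. Among the 11957 genes that were not dim, 2540 had such a range over the 4 lines and 801 over the lines other than TPC20223.

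Further genes of fatty acid metabolism, 123 measured of 133 listed, were read in the same way. Of these, 0 were called by limma, as were 0% of all genes. In TPAC lines 73 were higher and 50 lower, while 52.2% of all genes were higher. Without TPC20223 this turned round, with 49 higher and 73 lower, while 52.6% of all genes were lower. With the 4 lines, only 1 of the 123 had an unadjusted p under 0.05 (limma), a count close to the share of 0.782% over all genes. This was Hacd4, a dehydratase of fatty acid elongation, with 8.22 (TPC18645), 8.87 (TPC20223), 7.59 (K459) and 7.68 in TCPA18654 (limma, unadjusted p = 0.0305, adjusted p = 0.989). TPC20223 was the lowest line in 59 of 123, against 38.8% of all genes. In mitochondrial oxidation 11 of 16 genes were higher in TPAC lines, with a median log2 difference of 0.10, and TPC20223 was the lowest line in 11. Without TPC20223, 4 of these genes were higher and 12 lower, with a median of -0.12, while 52.6% of all genes were lower. With the 4 lines Echdc3 had the largest difference, 0.54 (0.05 without TPC20223). Its signals were 8.17 (TPC18645), 7.19 (TPC20223), 8.30 (K459) and 8.14 (TCPA18654). Acad8, an acyl-CoA dehydrogenase of valine breakdown, had the lowest, -0.10.

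In peroxisomal oxidation 9 of 15 genes were higher, against 52.2% of all genes, with a median of 0.075. When TPC20223 was left out, 5 were higher and 10 lower, with a median of -0.07, while 52.6% of all genes were lower. Crot, the carnitine octanoyltransferase, had log2 signals of 10.77 (TPC18645), 9.41 (TPC20223), 10.46 (K459) and 10.70 (TCPA18654), the pattern of Cpt1a. Abcd2, a peroxisomal fatty acid transporter that was dim by its mean, had 6.27, 7.96, 6.85 and 6.34, with TPC20223 highest. Among PPAR partners and targets 5 of 10 were higher and 5 lower, and without TPC20223 the counts were 3 and 7. Ppargc1a, a coactivator of mitochondrial genes, had 10.31, 7.61, 8.97 and 10.34, so that TPC20223 and K459 were both low. Pdk4, a kinase that turns glucose oxidation down, had 10.16, 10.39, 8.70 and 9.74, with K459 lowest.

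Other genes of synthesis, elongation and desaturation were higher in 12 of 20, against 52.2% of all genes, with a median of 0.11. When TPC20223 was left out, 8 were higher and 12 lower, with a median of -0.03, while 52.6% of all genes were lower. Slc25a1, the citrate carrier that feeds Acly, had log2 signals of 11.60 (TPC18645), 10.41 (TPC20223), 11.63 (K459) and 11.50 (TCPA18654). Elovl4, an elongase of very long chains, had 6.87, 10.31, 7.50 and 7.07, high in TPC20223 as Fabp4 was. Of the SREBP, LXR and ChREBP control genes 5 of 9 were higher, and without TPC20223 the counts were 4 higher and 4 lower. Insig1, which holds SREBP back and is itself a target of it, had 11.55, 10.50, 11.80 and 11.53, the order of Scd1. Mbtps1, the protease that cuts SREBP, had 11.23, 11.58, 11.23 and 11.23, so that its difference of -0.18 came from TPC20223.

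Among acyl-CoA ligases, hydrolases and carriers 13 of 25 genes were higher in TPAC lines, against 52.2% of all genes, with a median of 0.045. When TPC20223 was left out, 13 were higher and 12 lower, with a median of 0.01. Acsm3, a medium-chain acyl-CoA synthetase, had log2 signals of 5.64 (TPC18645), 5.16 (TPC20223), 9.25 (K459) and 5.72 (TCPA18654), so that its difference of 2.09 came from K459. By its mean over the lines Acsm3 was dim, so the size of this difference is not exact. Fabp3, the heart-type binding protein, had 7.69, 9.92, 7.14 and 7.66, with TPC20223 highest.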

How the data were processed

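RNA of cultured pancreatic tumor cells was hybridised to Affymetrix Mouse Gene ST 1.0 arrays, with 1 array for each of 4 lines. The deposited files hold log2 signals from RMA, run by the authors in Affymetrix Expression Console 1.4 according to the submitters' processing notes. Since RMA brings the arrays to a shared distribution, total RNA cannot be compared between lines. Filters and array batches are not given in the sources used here. The number of arrays limits the precision.

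Transcript clusters with 1 gene symbol in the platform annotation were kept (21789 of 28941), and each of 19938 genes was represented by its brightest cluster on average. TPAC and TPC lines were compared across all genes by limma 3.58.1 in R 4.3.3 (lmFit and eBayes, two-sided, Benjamini-Hochberg adjustment). A call needed an adjusted p of at most 0.05 together with a log2 difference of at least 0.58 in size, which are the limits of the study's own array comparison. The steps were tested on simulated data. For the limma fit, noise was drawn independently for each gene and line, so a line standing apart over many genes was not simulated. Gene groups were described by counts and medians. The fit was repeated with an intensity trend, after cyclic loess or centring on a common median, with a gene's clusters averaged, without the dimmest 40% of genes, with the methods' two-sample test, with no limit on the size of the difference, with the carnitine shuttle counted with oxidation, with means in place of medians, and without each line in turn.

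The members and gene lists were chosen with earlier results of these data known. All measured members are named. Each of 7 lists of other pathway genes is given by its counts and the gene of largest difference in each direction, and genes named beyond this were chosen after their values were seen. Promoter windows came from RefSeq (GRCm38.p6). Of 44 members 37 had a window, and 35 of these were measured.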

Additional observations from a re-analysis of the deposited data

How the results depend on the processing

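No gene was called by limma with the 4 lines together or in any alternative, and adjusted p-values reached 0.0913 at the lowest, when TPC18645 was left out. The methods' two-sample test also called 0 genes, with 8 higher and 7 lower by unadjusted p (under 0.05, same limit on size). Limma had 38 and 46. Without TPC18645 these counts were 1269 and 1586, and without K459 they were 12 and 7. The lone array of a genotype is then assumed to vary like the lines of the other genotype.

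With each line left out, the median log2 difference ranged from 0.035 to 0.31 for the synthesis genes and from -0.0775 to 0.50 for the beta-oxidation genes, and synthesis minus oxidation from -0.20 to 0.11. The low end of both medians and the high end of their difference came without TPC20223, the others without TPC18645. The common median, cyclic loess, the mean of clusters, the filter on dim genes, the carnitine shuttle counted with oxidation and means in place of medians moved these values by less than the spread between lines. Synthesis minus oxidation was -0.05 with the 4 lines and 0.03 with means. Of 42 members, 22 kept their direction in all alternatives, except that Fabp4 and Cd36 have no value without dim genes. The 20 others changed direction when a line was left out: Acly -0.01 to 0.13, Acacb -0.41 to 0.23, Elovl6 -0.14 to 1.76, Elovl7 -0.30 to 0.66, Acss2 -0.21 to 0.36 (-0.035 without K459), Srebf1 -0.14 to 0.45, Cpt1a -0.14 to 1.48, Acadl -0.15 to 0.87, Acads -0.21 to 1.05, Hadha -0.14 to 0.31 (-0.005 without TCPA18654), Hadhb -0.03 to 0.45, Echs1 -0.21 to 0.85, Acaa2 -0.09 to 1.03, Ehhadh -0.34 to 0.82, Etfa -0.08 to 0.24 (-0.06 without TPC20223), Etfb -0.08 to 0.24, Etfdh -0.01 to 0.21, Ppara -0.62 to 0.15, Pparg -0.07 to 0.53 and Cd36 -0.52 to 0.41 (0.04 without K459). No paired analysis was possible because the labels give the lines no shared numbers.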

Other observations

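Genes that store and release fatty acids as triglycerides varied between the lines as well. Of 28 measured genes 18 had higher means in TPAC lines, against 52.2% of all genes, and limma called 0. Their median log2 difference was 0.13 and went to -0.11 without TPC20223. Mogat2, an acyltransferase of triglyceride synthesis, had log2 signals of 8.42 (TPC18645), 6.83 (TPC20223), 8.88 (K459) and 8.24 (TCPA18654). Mgll, the lipase that splits monoglycerides, had 6.66, 9.26, 6.50 and 6.55, so that TPC20223 was high for this gene and low for Mogat2. Lpl, the lipoprotein lipase that frees fatty acids from circulating lipoproteins, was highest in K459 with 9.33, against 6.23 in TPC18645, 8.59 in TPC20223 and 7.13 in TCPA18654. Its order of the lines was that of Elovl6.

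Fabp7 and Acsbg1 were higher in TPC18645 and TCPA18654 than in the other lines. Fabp7, the brain-type binding protein, had 9.89 and 9.35 in these lines against 7.90 in TPC20223 and 7.21 in K459. Acsbg1, an acyl-CoA synthetase known from brain, had 9.99 and 9.66 against 7.31 and 8.10. These genes were chosen after their values were seen, and no test was run on them.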
